A study of Mus musculus with 2 samples.

Results

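The genes described here are 10 of the Toll-like receptor system of the mouse: the receptors Tlr2, Tlr3, Tlr4 and Tlr5, the co-receptors Ly96 and Cd14, the adaptors Myd88 and Ticam1, and the kinases Irak1 and Irak3. They were chosen by symbol, with earlier results of these data known. They are 10 of the 15113 genes that at least 1 of the deposited tables lists. RNA sequencing was done on 2 libraries of sorted lung epithelial cells, negative for the leukocyte protein CD45 and positive for surfactant protein C. The mice were C57BL/6 animals aged 6 to 8 weeks. One library came from wild-type mice without a tumour (control). The other came from mice given 1000000 luciferase-labelled LLC cells, a Lewis lung carcinoma line, under the skin of the back, a model of spontaneous lung metastasis (tumour-bearing). The time between injection and sorting, how surfactant protein C was detected, and whether animals were pooled, are points not given in the sources used here.

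Toll-like receptors sense microbial molecules and molecules released from damaged tissue. Tlr2 responds to bacterial lipoproteins, Tlr4 to lipopolysaccharide, Tlr5 to flagellin, all at the cell surface, and Tlr3 to double-stranded RNA in endosomes. Lipopolysaccharide is handed from the LPS-binding protein Lbp to Cd14 and from there to Ly96 (MD-2), the small protein that sits on Tlr4 and holds the lipid. Myd88 links most of these receptors to the IRAK kinases and on to NF-kB. Ticam1 (TRIF) serves Tlr3 and endosomal Tlr4 and leads to interferon genes. Irak1 carries the signal forward, while Irak3 (IRAK-M) is known as a brake on it. Alveolar type 2 cells, which make surfactant, are known to express several of these genes and to respond to inhaled bacterial products.

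Values are RPKM (reads scaled by the length of the gene and the size of the library) and can therefore be set side by side between genes. Each library's total was recovered from the digits of the tables at 5335352 reads (control) and 5387114 reads (tumour-bearing). With 1 library per group there is no replicate error, so every difference lacks a check across samples and carries no p-value. The 95% intervals beside levels and folds were computed on whole reads and describe counting error alone, since PCR copies are not independent molecules. A fold is the direct ratio of RPKM. A log2 ratio is log2((tumour-bearing RPKM + 1)/(control RPKM + 1)), which understates the difference of low genes. It was read for the 12288 genes that reached 1 RPKM in either library. All 10 members passed this filter, Irak3 through the tumour-bearing and Tlr2 through the control library alone, so the direction of these members was fixed by the filter. In bulk RNA, fewer cells of a type and less RNA per cell cannot be told apart.

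The co-receptors were higher and 3 of the 4 receptors were lower in cells of tumour-bearing mice, Tlr5 only within counting error. Summed over genes, receptor RPKM was 15.3 in control cells and 9.62 in cells of tumour-bearing mice, 1.6-fold lower. Co-receptor RPKM was 55.3 and 122, 2.2-fold higher, and Cd14 made up 96.1% and 94.4% of it. The adaptors summed to 50.2 and 48.7 RPKM and the kinases to 28.6 and 37.9 RPKM. On the log2 scale 3 members (Ly96, Cd14 and Irak3) were at least 2-fold higher, against 9.38% of all tested genes, and 0 were at least 2-fold lower, against 6.53%. As direct ratios the same 3 were at least 2-fold higher (12.5% of tested genes), and Tlr2 and Tlr4 were at least 2-fold lower (10.6%). The median log2 ratio was 0.21 over the 10 members and 0.06 over all tested genes. The counting interval lay wholly above 1 for 5 members (33.1% of tested genes) and wholly below 1 for 2 (26.5%), so an interval that leaves out 1 was common in this pair of libraries. These counts take in Irak3 among the higher and Tlr2 among the lower members, though the filter fixed their direction. Of the members at 1 RPKM or more in both libraries, Ly96 and Cd14 were at least 2-fold higher and, as a direct ratio, Tlr4 at least 2-fold lower.

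**Figure D1:**
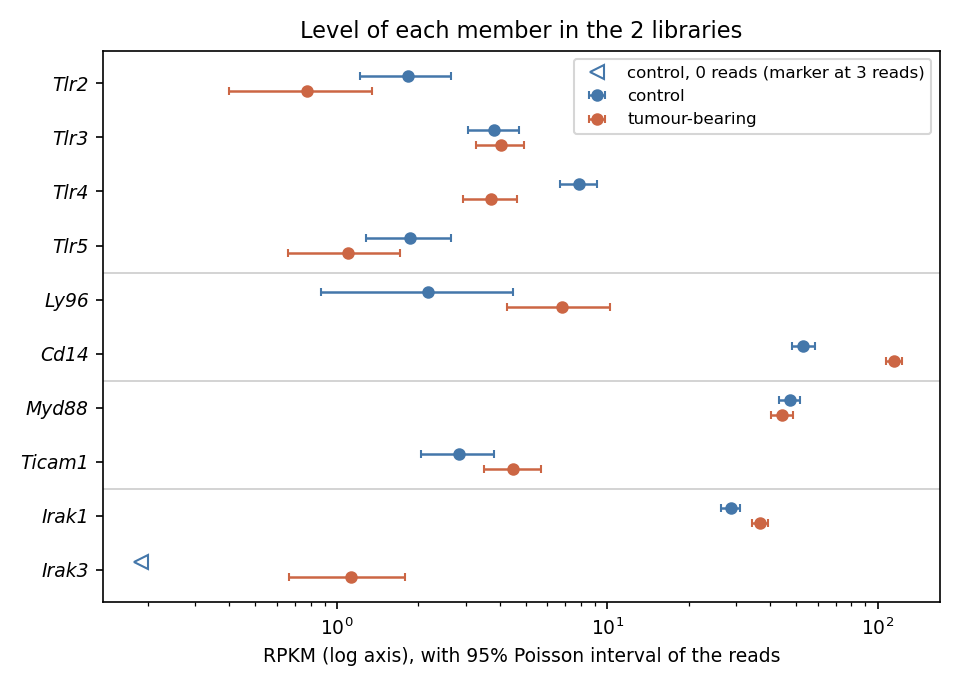
RPKM of each of the 10 genes on a log axis in the control (blue) and tumour-bearing (orange) library, with bars for the exact 95% Poisson interval of the reads and an open triangle at the level of 3 reads for Irak3, which had 0 control reads. Cd14, Myd88 and Irak1 lie above 28 RPKM in both libraries, and the other 7 genes below 8 RPKM.

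The members covered a wide range of levels, and their order differed between the libraries. In the control library Cd14 (53.1 RPKM, interval 48.2 to 58.4) and Myd88 (47.4 RPKM, 43.3 to 51.7) were the most abundant, with overlapping intervals. Irak1 followed at 28.6 RPKM and Tlr4 at 7.84 RPKM, each apart from its neighbours. Tlr3, Ticam1, Ly96, Tlr5 and Tlr2 lay between 3.81 and 1.83 RPKM, with each interval overlapping the next, and Irak3 had no reads. In the tumour-bearing library Cd14 stood alone at 115 RPKM (108 to 123), ahead of Myd88 at 44.2 RPKM and Irak1 at 36.8 RPKM. Ly96, Ticam1, Tlr3 and Tlr4 formed a chain of overlapping intervals from 6.77 to 3.72 RPKM, so Tlr4 went from the fourth to the seventh place. Irak3, Tlr5 and Tlr2 closed the order between 1.13 and 0.775 RPKM, again with overlapping intervals. Of the genes listed in each table, 92.1% were lower than Cd14 in control cells and 96.6% in cells of tumour-bearing mice, while for Tlr4 these shares were 54.5% and 38.0%.

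Tlr4 (GeneID 21898, chromosome 4, 66827551 to 66846581 on mm10), the lipopolysaccharide receptor, had 161 reads at 7.84 RPKM in control cells and 77 reads at 3.72 RPKM in cells of tumour-bearing mice. It was the most abundant receptor of the family in the control library and came second to Tlr3 in cells of tumour-bearing mice. The level was 2.11-fold lower, with an interval of 1.6 to 2.81, and the log2 ratio was -0.91, lower than that of 11309 of the 12288 tested genes. Tlr2 (GeneID 24088, chromosome 3, 83836272 to 83841824), the lipoprotein receptor, had 28 reads at 1.83 RPKM and 12 reads at 0.775 RPKM. That is 2.36-fold lower, with a wide interval of 1.16 to 5.09, and a log2 ratio of -0.67. Tlr5 (GeneID 53791, chromosome 1, 182954752 to 182976044), the flagellin receptor, had 32 reads at 1.87 RPKM and 19 reads at 1.1 RPKM. Its level was 1.7-fold lower, but the interval of 0.935 to 3.18 includes 1, so a difference was not detectable at this depth.

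Tlr3 (GeneID 142980, chromosome 8, 45395665 to 45411075), the sensor of double-stranded RNA, was nearly level in the 2 libraries. It had 88 reads at 3.81 RPKM in control cells and 94 reads at 4.03 RPKM in cells of tumour-bearing mice. The ratio was 1.06 with an interval of 0.783 to 1.43, and the log2 ratio of 0.06 took the other sign under upper-quartile scaling and without the most abundant genes. Relative to Tlr3, Tlr4 was at 2.06 in control cells and 0.921 in cells of tumour-bearing mice as a ratio of RPKM. That ratio differed between the libraries by a factor of 0.448, with an exact conditional interval of 0.295 to 0.68, so the shift of Tlr4 against Tlr3 exceeded counting error.

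Cd14 (GeneID 12475, chromosome 18, 36725064 to 36726815), which binds lipopolysaccharide and passes it on, was the most abundant member. It had 424 reads at 53.1 RPKM in control cells and 928 reads at 115 RPKM in cells of tumour-bearing mice, a difference of 62.0 RPKM. The level was 2.17-fold higher, with a narrow interval of 1.93 to 2.44, and the log2 ratio of 1.10 was exceeded by 927 of the 12288 tested genes. Ly96 (GeneID 17087, chromosome 1, 16688456 to 16709605), the lipid-holding partner of Tlr4, had 7 reads at 2.18 RPKM and 22 reads at 6.77 RPKM. Its level was 3.11-fold higher, and the interval of 1.28 to 8.63 is wide because the gene is short and few reads fell on it.

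Within the lipopolysaccharide complex the balance of the 3 transcripts differed. Cd14 was 6.77 times Tlr4 in control cells and 31 times Tlr4 in cells of tumour-bearing mice, and this balance differed 4.58-fold (interval 3.38 to 6.23). Ly96 was 0.277 times Tlr4 in control cells and 1.82 times Tlr4 in cells of tumour-bearing mice, and this balance differed 6.57-fold (interval 2.55 to 18.9). The ratio of Cd14 to Ly96 was 24.4 and 17.0, and its factor of 0.696 had an interval of 0.249 to 1.7, so a shift between the co-receptors was not detectable. These ratios do not depend on the scaling of the libraries, because both genes of a pair come from the same library. Cd14 also serves Tlr2, and Cd14 was 29.1 times Tlr2 in control cells and 148 times Tlr2 in cells of tumour-bearing mice.

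**Figure D2:**
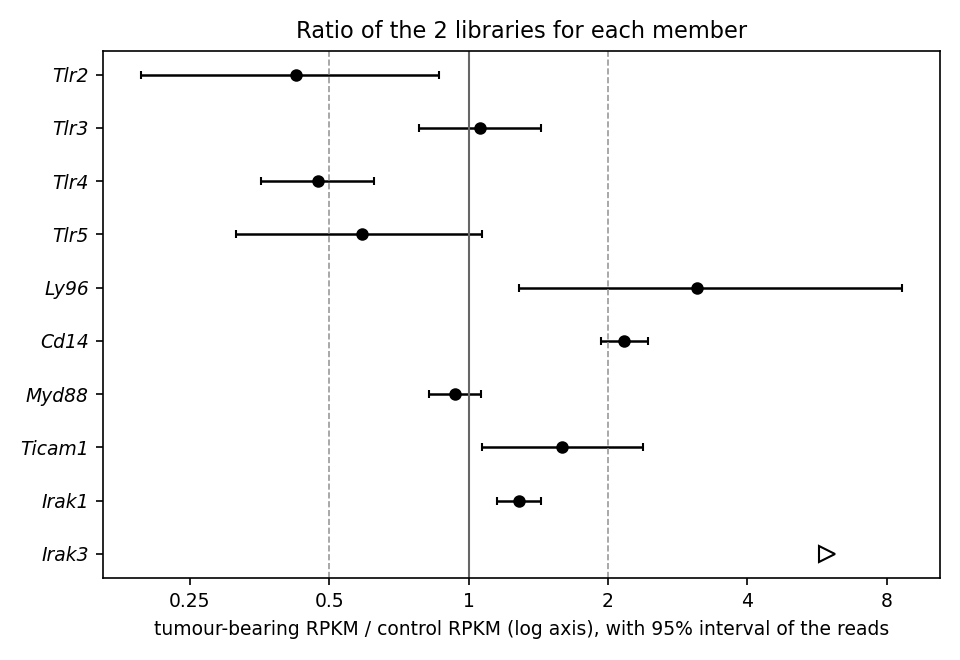
Direct ratio of tumour-bearing to control RPKM for each gene on a log axis, with exact 95% counting intervals, a solid line at 1 and dashed lines at 0.5 and 2; the open triangle for Irak3 stands at its ratio of 5.94 to the floor of 3 control reads. Tlr2 and Tlr4 lie wholly below 1, Ly96, Cd14, Ticam1, Irak1 and Irak3 wholly above 1, and the intervals of Tlr3, Tlr5 and Myd88 include 1.

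The adaptors differed in level far more than between libraries. Myd88 (GeneID 17874, chromosome 9, 119335934 to 119340018), the common adaptor, had 492 reads at 47.4 RPKM in control cells and 464 reads at 44.2 RPKM in cells of tumour-bearing mice. The ratio was 0.934 with an interval of 0.821 to 1.06, which reached a 1.5-fold difference in neither direction. Ticam1 (GeneID 106759, chromosome 17, 56269462 to 56276767), the TRIF adaptor, had 43 reads at 2.83 RPKM and 69 reads at 4.49 RPKM. It was 1.59-fold higher, with an interval of 1.07 to 2.38 and a log2 ratio of 0.52, within the 2-fold limit. Myd88 was 16.8 times Ticam1 in control cells and 9.85 times Ticam1 in cells of tumour-bearing mice, a factor of 0.588 with an interval of 0.384 to 0.893.

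Of the kinases, Irak1 (GeneID 16179, chromosome X, 74013914 to 74023921), which is recruited through Myd88, was the better measured. It had 603 reads at 28.6 RPKM in control cells and 783 reads at 36.8 RPKM in cells of tumour-bearing mice, 1.29-fold higher with an interval of 1.15 to 1.43. Irak3 (GeneID 73914, chromosome 10, 120141648 to 120202130), the inhibitory family member, is missing from the control table and had 18 reads at 1.13 RPKM in cells of tumour-bearing mice. A count of 0 allows up to 3 reads, or 0.189 RPKM, in the control, and against that floor the level was at least 5.94-fold higher. The counting interval of the ratio, which takes in the error of the 18 reads, begins lower, at 4.35. The log2 ratio of 1.09 rests on the 1 RPKM added to both values.

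**Figure D3:**
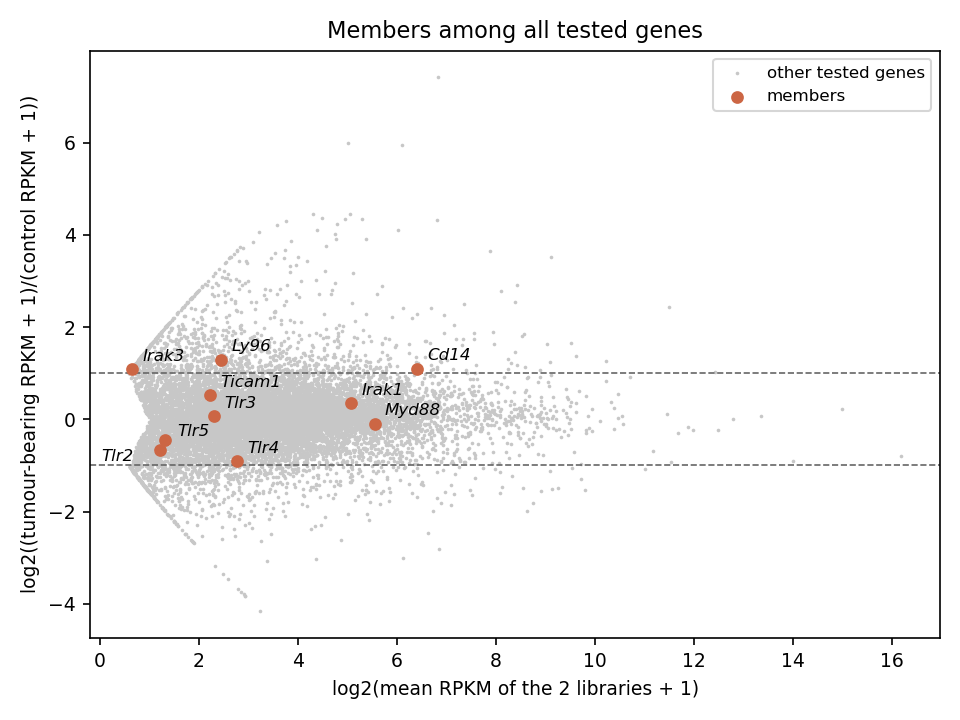
Log2 ratio of the 2 libraries (vertical) against log2 mean RPKM (horizontal) for the 12288 tested genes, with the 10 members in orange and dashed lines at a 2-fold difference. Ly96, Cd14 and Irak3 lie above the upper line at 1.29, 1.10 and 1.09, and Tlr4 at -0.91 lies just inside the lower one.

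RefSeq start-site windows on GRCm38.p6, the assembly that mm10 denotes, were matched for 7 of the 10 members. Tlr4, Ly96 and Cd14 had no match. Windows of 250 bases before the start were searched on both strands for 5 short motifs. These were a 9-letter NF-kB form (GGGNNTTCC, in 4.98% of 32851 windows), an AP-1 form (TGANTCA, 6.75%), a STAT form (TTCNNNGAA, 7.02%), a C/EBP form (TTNNGNAA, 36.8%) and the GC box (GGGCGG, 32.7%). Tlr2 held 2 overlapping NF-kB matches and Myd88 1 STAT match, while GC boxes were found for Tlr2, Tlr5, Myd88, Ticam1, Irak1 and the inner Irak3 start. A match is a description of letters and not a site of binding. The adaptors and Irak3 are shown because they span a level that did not differ beyond counting error (Myd88), one that was modestly higher (Ticam1) and one read in cells of tumour-bearing mice alone (Irak3). Only the part outside annotated transcripts is printed, 5′ to 3′ on the minus strand, with matches in capitals, which mark the GC box and STAT matches of Myd88 and 2 GC boxes of Ticam1. The regions are chr9:119340042-119340268, chr17:56276787-56277017 and chr10:120202196-120202380.
Myd88: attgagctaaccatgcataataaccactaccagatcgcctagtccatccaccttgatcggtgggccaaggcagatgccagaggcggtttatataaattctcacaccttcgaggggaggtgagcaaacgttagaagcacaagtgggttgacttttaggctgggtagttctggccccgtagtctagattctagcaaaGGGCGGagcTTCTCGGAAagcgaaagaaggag
Ticam1: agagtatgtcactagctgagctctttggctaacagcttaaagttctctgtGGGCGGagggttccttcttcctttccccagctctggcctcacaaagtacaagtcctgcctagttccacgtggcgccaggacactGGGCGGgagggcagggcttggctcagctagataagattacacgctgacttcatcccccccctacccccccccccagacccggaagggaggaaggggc
Irak3: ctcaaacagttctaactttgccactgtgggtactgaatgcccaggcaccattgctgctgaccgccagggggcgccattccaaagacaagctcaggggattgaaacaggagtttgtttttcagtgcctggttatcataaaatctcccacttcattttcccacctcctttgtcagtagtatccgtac

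Reads of the remaining Toll-like receptors were few. Of 8 such genes, Tlr6, Tlr8, Tlr11 and Tlr12 are listed in neither table, and none reached 1 RPKM. All are named after their values were seen. Control and tumour-bearing reads were 0 and 6 for Tlr1, a partner of Tlr2, 4 and 0 for Tlr7, 8 and 0 for Tlr9, and 4 and 4 for Tlr13. The receptors of these cells were thus read mainly as Tlr3 and Tlr4, with Tlr2 and Tlr5 below 2 RPKM.

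Genes that deliver or fold the receptors were mostly within 2-fold. Of 12 listed genes 9 were tested, with a median log2 ratio of -0.13. In each direction 1 gene was past 2-fold (9.38% of all tested genes higher, 6.53% lower). Lbp, which loads lipopolysaccharide onto Cd14, was at 76.7 and 104 RPKM, 1.36-fold higher (interval 1.25 to 1.47). Mfge8, an adhesion protein that bridges dying cells to phagocytes and that was listed here as an accessory gene, was 2.22-fold higher (1.92 to 2.58). Cnpy4, a chaperone cofactor for surface Toll-like receptors, was at 9.58 and 3.54 RPKM, 2.7-fold lower (1.8 to 4.13). Hsp90b1, the endoplasmic reticulum chaperone gp96 on which most of these receptors depend, was 1.44-fold lower (1.38 to 1.5).

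Downstream of the adaptors no tested gene passed 2-fold on the log2 scale (9.38% of all tested genes higher, 6.53% lower). As a direct ratio 1 was higher by 2-fold or more, against 12.5% of tested genes. Of 24 listed genes 22 were tested, with 13 above 0, 9 below 0 and a median of 0.02. Ikbke, an IkB-related kinase named after its values were seen, was the 1 past 2-fold as a direct ratio, at 1.23 and 2.49 RPKM, from 21 and 43 reads (2.03-fold, interval 1.18 to 3.6). Ikbkg (NEMO), the regulatory subunit of the IkB kinase, had the largest log2 ratio of the list, 0.82, at 3.93 and 7.67 RPKM, 1.95-fold higher (1.59 to 2.4). Ikbkb, a catalytic subunit of the same kinase, was 1.42-fold higher (1.1 to 1.85). On the Ticam1 side, the kinase gene Tbk1 was 1.44-fold higher (1.22 to 1.7) and its substrate Irf3, an interferon regulatory factor, was 1.47-fold lower (1.24 to 1.74).

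The genes listed as restraining the pathway leaned lower. Of 13 tested genes among 15, 3 were lower by 2-fold or more, against 6.53% of all tested genes. None were higher by that much, against 9.38%, and the median was -0.29. Irak3, also a brake, is held with the members and not in this list. It was higher, in a direction that the filter fixed. Atf3, a repressor of inflammatory genes that is itself an immediate early gene, was at 405 and 134 RPKM, and Tnfaip3 (A20), a ubiquitin editor acting on Traf6, was at 28.5 and 11.7 RPKM. Socs1, named after its values were seen, was the other gene of the 3, at 4.62 and 1.52 RPKM from 33 and 11 reads. Tollip and Sigirr, further inhibitors also named after their values were seen, were within 2-fold, Tollip at 24.0 RPKM in both and Sigirr at 11.5 and 9.23 RPKM. Ptpn11 and Tax1bp1 were 1.48-fold (1.31 to 1.67) and 1.47-fold (1.34 to 1.62) higher.

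The interleukin-1 receptor family, which shares Myd88 and the IRAK kinases, had a median of -0.66 over 8 tested genes of 11. Of these 8 genes 3 were at least 2-fold lower, against 6.53% of all tested genes. All 3 reached 1 RPKM in the control library alone, as did Il18rap, at 2.03 and 0.595 RPKM and named after its values were seen. The direction of these 4 genes was thus fixed by the filter, and the median partly rests on them. Its well-read genes stayed within 2-fold. Il33, an alarmin stored in type 2 cells, was at 163 and 164 RPKM, Il1r1 was 1.41-fold higher (1.22 to 1.62) and Il18r1 1.34-fold lower (1.2 to 1.49). The 3 lower genes, Il1b, Il18 and Il36g, are named after their values were seen and rest on 24, 13 and 16 control reads against 0, 0 and 3 tumour-bearing reads.

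Sensors of other families served as a comparison for the receptors. Of 9 tested genes among 13, 0 passed 2-fold on the log2 scale (9.38% of all tested genes higher, 6.53% lower). The median was 0.01. Tmem173 (STING) was at 5.62 and 11.9 RPKM, 2.11-fold higher as a direct ratio (1.57 to 2.85). Nod1, a sensor of bacterial wall fragments, was 1.39-fold lower (1.15 to 1.68). Ifih1 (MDA5), a sensor of double-stranded RNA like Tlr3, was at 5.54 and 7.03 RPKM, 1.27-fold higher (1.03 to 1.57), and Ripk2, the kinase of the Nod receptors, was at 5.36 and 7.14 RPKM.

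**Figure D4:**
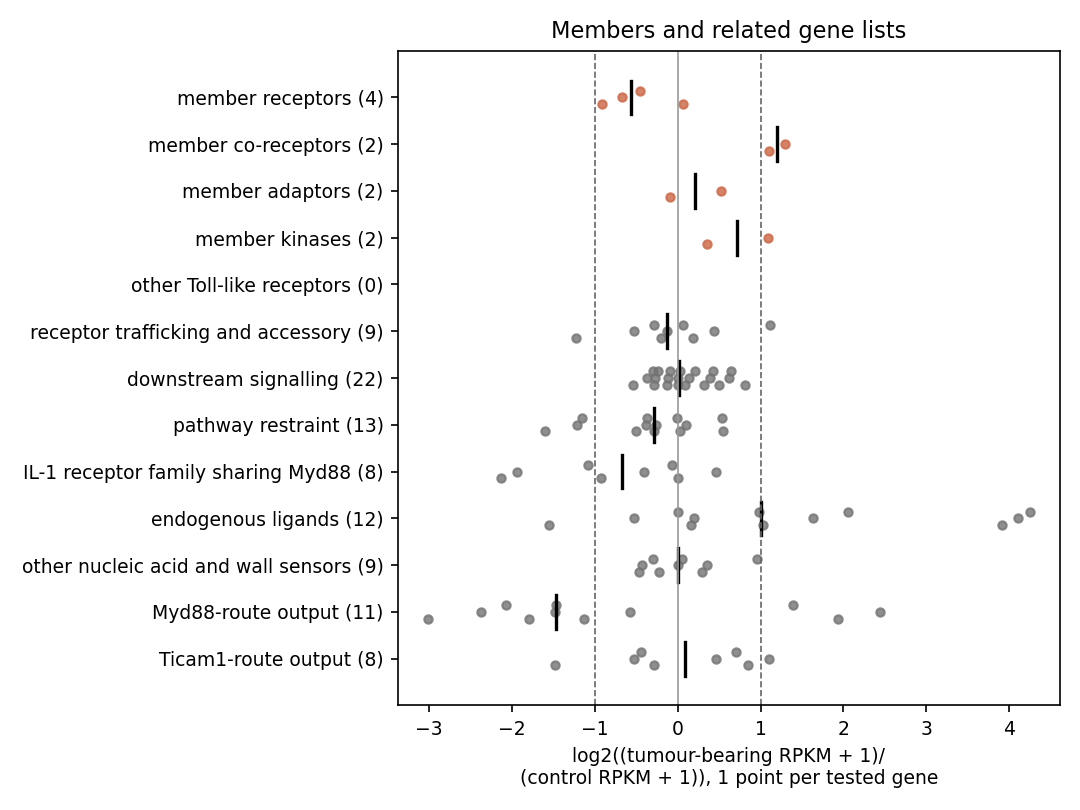
Log2 ratio of each tested gene in the member groups (orange) and in related lists (grey), with the number of tested genes in brackets, a black bar at the median and dashed lines at a 2-fold difference. The downstream signalling genes all lie inside the dashed lines, while the endogenous ligand and Myd88-route output lists spread past them on both sides.

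Host molecules described as ligands of Tlr2 or Tlr4 included the largest log2 ratio among the pathway lists, that of Saa3. Of 12 tested genes among 16, 6 were higher by 2-fold or more (9.38% of all tested genes) and 1 was lower (6.53%), with a median of 1.01. Of these, 1 higher gene (Vcan) and the lower gene (S100a9, 5 control reads), named after their values were seen, reached 1 RPKM in 1 library alone. Biglycan (Bgn), a matrix proteoglycan, was at 6.12 and 121 RPKM, 19.8-fold higher (15.8 to 25.2). Fibronectin (Fn1) was 20.8-fold higher (17.2 to 25.5), decorin (Dcn) 4.45-fold (3.58 to 5.58), and the serum amyloid gene Saa3 29.1-fold (12.2 to 91), from 5 and 147 reads. Bgn, Fn1 and Dcn are genes that fibroblasts express strongly. The fibroblast markers given below, which include Dcn itself, were higher in the same library. The part of fibroblasts in these ligand values was not tested.

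Genes known as outputs of the pathway were mostly lower on the Myd88 side. Of 11 tested genes of the Myd88 route among 12, 7 were lower by 2-fold or more, against 6.53% of all tested genes. By the same measure 3 were higher, against 9.38%, and the median was -1.47. Of the 3 higher genes, Cxcl5 and Csf3 reached 1 RPKM in the tumour-bearing library alone, and of the 7 lower genes Ccl20 did so in the control alone, so the direction of these, named after their values were seen, was fixed by the filter. Cxcl1, a neutrophil chemokine, was at 123 and 14.4 RPKM and Csf2 (GM-CSF) at 31.2 and 5.21 RPKM. Lcn2 (lipocalin 2), an iron-binding antimicrobial protein, was higher, at 901 and 4899 RPKM. Of 8 tested genes of the Ticam1 route among 12, 1 passed 2-fold in each direction (9.38% of all tested genes higher, 6.53% lower). The median was 0.09. Irf1 was at 83.4 and 29.3 RPKM, 2.85-fold lower (2.52 to 3.24), and Ifit3, an interferon-induced gene, was 2.43-fold higher (1.7 to 3.53). Many other signals act on these genes, so their levels do not measure the activity of the receptors.

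Several members, among them Cd14, Ly96 and Tlr2, are also genes of myeloid cells. Cd14, Ly96 and Tlr4 are also known from stromal cells, so the markers of myeloid and stromal cells are given beside the members. Ptprc (CD45), the gene of the sort gate, had 12 control and 2 tumour-bearing reads, and the 8 pan-leukocyte genes summed to 88.7 and 56.4 RPKM. Lcp1 carried that sum, and the other 7 genes came to 6.09 and 6.11 RPKM. The list of 16 macrophage and monocyte genes, summed without Lyz2, which type 2 cells express strongly, came to 47.8 and 116 RPKM, 2.44-fold higher. Of these 16, 7 were at 0 in control cells and 5 in cells of tumour-bearing mice, with Adgre1, Mrc1 and Marco listed in neither. The most abundant of them besides Lyz2 was Ly6c2, at 24.8 and 56.4 RPKM, followed in cells of tumour-bearing mice by Cd68, at 7.81 and 31.5 RPKM. Ly6c2 made up 52.0% and 48.5% of the sum. Of the 9 tested genes of the list 7 were higher and 2, Lyz2 and Chil3 (Chi3l3), were lower. C1qb and C1qc, at 0 in the control, had 32 and 22 tumour-bearing reads, at 5.59 and 3.84 RPKM. Chil3 had 19 control and 0 tumour-bearing reads, and Cx3cr1, below 1 RPKM in both, had 16 and 2. Chil3 and Cx3cr1 are named after their values were seen. The 9 neutrophil genes summed to 4.09 RPKM in control cells and to a level 1.02-fold lower in the other library (3.79 and 1.56 RPKM without Retnlg), and S100a8, Ly6g and Camp were listed in neither table. The part of macrophages and monocytes in the values of the members, Cd14, Ly96 and Irak3 included, was not tested.

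As sums, stromal markers differed more than the receptors, co-receptors, adaptors or kinases did. The 10 fibroblast genes summed to 41.7 and 461 RPKM, 11.1-fold higher, led by Inmt at 16.3 RPKM in control cells and by Mgp at 214 RPKM in cells of tumour-bearing mice. Lum and Tcf21 were at 0 in the control. The 11 endothelial genes summed to 41.8 and 185 RPKM, 4.42-fold higher, with Ramp2 the most abundant in both libraries, at 8.6 and 28.5 RPKM. Of these 11 genes 9 were higher and 2, Kdr and Tek, were lower. Kdr was at 6.41 and 3.4 RPKM, 1.89-fold lower (1.47 to 2.43), and Tek at 3.71 and 3.15 RPKM, within counting error. Kdr and Tek are named after their values were seen. Cd14 was above the summed level of the fibroblast, endothelial and macrophage lists in the control library, at 53.1 RPKM. In the tumour-bearing library, at 115 RPKM, it was below the fibroblast and endothelial sums. Its interval there, 108 to 123, includes the macrophage sum of 116 RPKM. Such sums depend on how many and which genes are listed. The part of fibroblasts and endothelial cells in the higher co-receptor values was not tested either.

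The type 2, club and type 1 marker lists had the highest sums in both libraries. The 6 ciliated genes summed to 567 and 435 RPKM, below the fibroblast sum of 461 RPKM in the tumour-bearing library. The 9 alveolar type 2 genes summed to 122244 and 80262 RPKM, with Sftpc making up 18.6% and 11.2% of all RPKM of its library. The 8 alveolar type 1 genes summed to 1555 and 2508 RPKM, and Ager made up 73.8% and 66.7% of it. All 8 were higher, 5 of them by 2-fold or more (9.38% of all tested genes), with a median log2 ratio of 1.21. Without Ager the type 1 sum was 407 and 836 RPKM, 2.05-fold higher. The 6 club secretory genes summed to 32338 and 36441 RPKM. Scgb1a1 made up most of the club sum. Of the 6 club genes 4 were lower, with a median log2 ratio of -0.73, and without Scgb1a1 the sum was 2196 and 1325 RPKM. The type 2 sum was 1.52-fold lower in the tumour-bearing library, which came mostly from Sftpc. Without Sftpc the type 2 sum was 27341 and 25294 RPKM, 1.08-fold lower. Of the 9 genes 6 were lower and 3 level or higher, with a median log2 ratio of -0.33. Of the 6 lower genes 2 were lower by 2-fold or more, against 6.53% of all tested genes. These were Etv5, at 341 and 162 RPKM, and Lyz1, at 2813 and 1339 RPKM, named after their values were seen. Whether the mix of epithelial cells had a part in the receptor values was not tested.

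**Figure D5:**
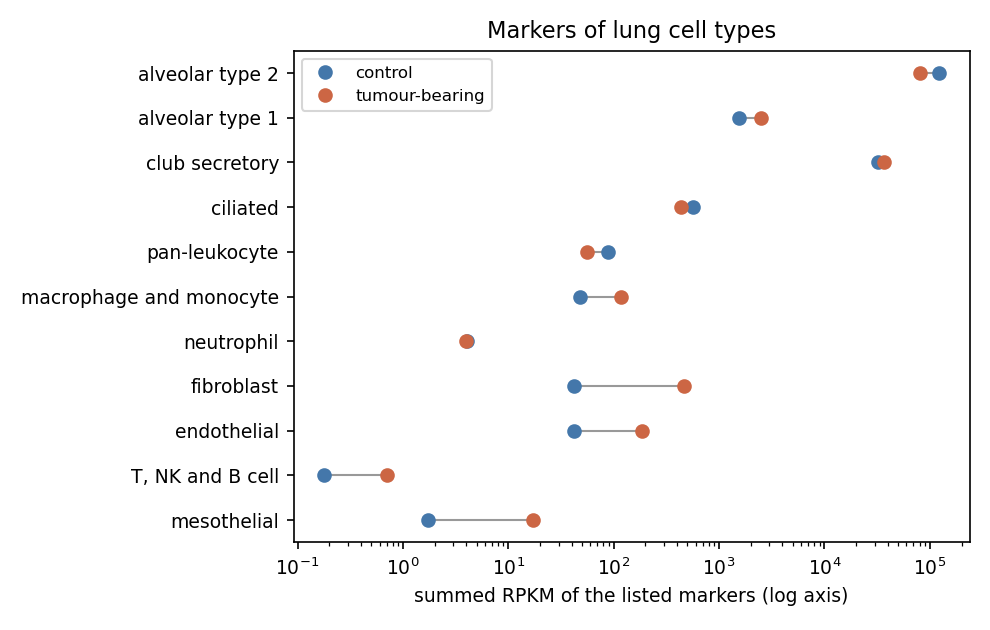
Summed RPKM of marker genes of lung cell types on a log axis in the control (blue) and tumour-bearing (orange) library, with Lyz2 left out of the macrophage sum. Fibroblast markers went from 41.7 to 461 RPKM, endothelial markers from 41.8 to 185 RPKM and macrophage markers from 47.8 to 116 RPKM, while the type 2 markers were the highest list in both libraries.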

How the data were processed

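Trimmomatic and mm10 are the tool and build named, per the submitters' processing notes. For the aligner, counting tool, annotation and strand setting, nothing is given in the sources used here. The authors deposited 1 table of RPKM per library, per the file headers, and a gene absent from 1 table counts as 0 there. Values were compared as deposited. A very abundant gene such as Sftpc lowers the RPKM of all others in its library.

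Whole reads were recovered from the RPKM digits and the row order for 15108 of 15113 genes (99.97%), with implied lengths of the members within 8.78% of a GENCODE M21 transcript length. Of 28203 neighbouring rows, 98 were out of order. The totals are estimates of this work. The recovery was tested on simulated data. The 2-fold rule was tried there only on larger planted differences in well-read genes. How it behaves near 2-fold or at few reads was not tested. Ratio intervals are exact (Clopper-Pearson) conditional binomial, level intervals exact Poisson, and intervals of ratios between genes exact conditional odds ratios (SciPy 1.17.1). For folds, a gene at 0 reads was set to a floor of 3 reads.

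Symbols and coordinates came from a RefSeq table of GRCm38.p6. The members and lists were chosen with earlier results of these data known. The rule for names was all members, then up to 4 genes per pathway list (3 per output list) that were farthest from 0 on the log2 scale and reached 5 RPKM, and for marker lists the most abundant gene and those at 0. With 2 libraries, likeness of pattern to a member carries no information, so no gene is named by it. Alternatives covered scaling, pseudocounts, low-value filters, thresholds and recovered reads. The direct ratio and the interval past 2-fold were added after the data were examined.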

Additional observations from a re-analysis of the deposited data

How the results depend on the processing

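The number of members at least 2-fold lower, 0 as reported, was 2 with a pseudocount of 0.1, on recovered reads with 0.5 added, as direct ratios and at a 1.5-fold threshold. The number at least 2-fold higher, 3 as reported, was 1 with a pseudocount of 5 and 0 at a 4-fold threshold. That number was 1 (Irak3, which had no control reads) when the counting interval had to lie wholly past 2-fold. It was 2 under upper-quartile scaling, where Cd14 was at 0.99, and with a filter at 5 RPKM, which kept 5 members. Upper-quartile scaling moved all log2 ratios down by up to 0.11. The median over the members lay between 0.11 and 0.35. The log2 ratio of 9 members kept its sign under each alternative, and that of Tlr3 was of the other sign under 2 of 9, at -0.02 at the lowest. Irak3 ranged from 0.29 to 5.20, Tlr2 from -1.24 to -0.24, Tlr4 from -1.08 to -0.56 and Ly96 from 0.71 to 1.64, mostly with the pseudocount. Tlr2, Tlr5, Ly96 and Irak3 have 40 or fewer reads in each library, which limits what can be said of them. No paired analysis was possible because each group holds 1 library.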
